A study of Mus musculus with 15 samples.

Results

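DNA replication machinery genes were followed in cultured mouse spermatogonial stem cells while the growth factor GDNF and its co-receptor GFRalpha1 were taken away and given back. The genes were 47 in number, chosen by name for their part in copying DNA, from origin licensing to nucleotide supply and the packing of new DNA into chromatin. The platform annotation named a probe set for 46 of the 47, and all 46 passed the filter on low signal, among 13083 genes tested. Chaf1a was not analysed here.

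RNA came from germ cell cultures enriched for spermatogonial stem cells, set up from male C57BL/6 mice 6 days old and grown in defined medium without serum. The 15 arrays formed 5 groups of 3. Maintained cultures always had GDNF, GFRalpha1 and bFGF (basic fibroblast growth factor). Withdrawal cultures spent 18 h without GDNF and GFRalpha1, and the replacement groups then had both factors again for 2 h, 4 h or 8 h. No group analysed here stayed without the factors beyond 18 h, so time since the withdrawal began and replacement cannot be told apart. The labels do not say whether replicates were separate cultures, and p-values therefore measure the spread between these samples, which may be technical. An exact permutation test of 3 arrays against 3 cannot go below p = 0.1, so calls rest on the limma model fitted across all genes.

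Before S phase, the origin recognition complex, Cdc6 and Cdt1 load the ring of Mcm2 to Mcm7 onto origins, and Cdc45 and the GINS proteins turn that ring into a running helicase. DNA polymerase alpha with its primase lays down primers, and polymerases delta and epsilon extend them while the PCNA clamp holds them to DNA. GDNF, acting through GFRalpha1 and the receptor Ret, is known to maintain spermatogonial stem cells, and cells that divide need the replication machinery in every S phase.

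The signal is that of MAS5, a linear intensity in arbitrary units. Differences and their standard errors (SE) are limma estimates on log2(signal + 16), and the threshold for a call was an adjusted p of 0.05. Germ cell markers were read as a check of the labelled cell type, and the summed signal of 8 of them, among them Ddx4, Dazl and Zbtb16, lay between 13622 and 16220 on all 15 arrays. Single markers were less steady than the sum: on withdrawal Gfra1 fell 1.83-fold (limma adjusted p = 0.0124) and Zbtb16 rose 1.71-fold (adjusted p = 0.0261). The summed signal of 18 fibroblast markers was 10185 to 13369 in maintained cultures, 9686 to 15204 after withdrawal, 6368 to 11011 at 2 h, 17440 to 20787 at 4 h and 17185 to 21062 at 8 h. Of these 18, Lum and Tagln lay under the filter on low signal. Summed Sertoli cell markers ran from 537 to 894, Leydig cell markers from 131 to 402, and blood and endothelial markers from 270.3 to 454. Withdrawal replicate 3 stood apart in its ratio of 3′ to 5′ beta-actin control signal, 2.77 against 1.10 to 1.75 on the other arrays, and its Gapdh ratio was 1.77 against 0.71 to 1.05. Replicate 3 of the 2 h group stood apart in the members themselves, as described with that comparison.

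Promoters of replication genes are known to carry E2F motifs, bound by the E2F factors that drive genes at the entry to S phase, and CCAAT boxes, bound by NF-Y. Of the 47 genes, 40 had an entry in the RefSeq promoter table (GRCm38.p6), which holds 250 bases before and 50 bases after each start. An E2F motif, spelled TTTCGCGC or TTTGGCGC on either strand, was found in 10 of the 40 (25%), against 0.929% of the 27025 genes in the table. The 10 were Cdt1, Lig1, Mcm3, Mcm5, Mcm6, Mcm7, Orc1, Pola1, Pole2 and Rfc3, and none of them was called after withdrawal. A CCAAT box, spelled CCAAT or ATTGG, was found in 25 of the 40 (62.5%), against 41.1% of all genes. Of the 7 genes called after withdrawal, 0 held the E2F motif in the spellings searched and 5 held a CCAAT box. E2F motif and CCAAT box overlapped each other in 1 gene, Mcm7. Other spellings of the E2F motif were not searched. A match is a run of letters and no evidence of binding.

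The 160 bases before the start are printed for the 5 called genes with a CCAAT box and for 2 helicase genes with an E2F motif, 5′ to 3′ on the gene's strand. This set was chosen after the matches were seen. Capitals mark CCAAT or ATTGG in the first 5 sequences and the E2F motif in Mcm5 and Mcm6, where runs that overlap are joined. The positions are chr2:132253181-132253340 on the minus strand for Pcna, chr12:24708094-24708253 on the plus strand for Rrm2, chr5:33652575-33652734 on the minus strand for Slbp, chr10:128015055-128015214 on the plus strand for Prim1 and chr8:85299472-85299631 on the plus strand for Orc6. Mcm5 lies at chr8:75109349-75109508 on the plus strand and Mcm6 at chr1:128359706-128359865 on the minus strand.
Pcna: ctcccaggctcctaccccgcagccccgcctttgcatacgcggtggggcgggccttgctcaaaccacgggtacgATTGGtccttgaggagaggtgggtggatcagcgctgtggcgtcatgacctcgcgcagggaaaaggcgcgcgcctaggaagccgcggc
Rrm2: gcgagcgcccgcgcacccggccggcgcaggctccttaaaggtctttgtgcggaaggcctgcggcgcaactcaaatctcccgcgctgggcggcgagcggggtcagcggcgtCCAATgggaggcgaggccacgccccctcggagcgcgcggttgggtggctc
Slbp: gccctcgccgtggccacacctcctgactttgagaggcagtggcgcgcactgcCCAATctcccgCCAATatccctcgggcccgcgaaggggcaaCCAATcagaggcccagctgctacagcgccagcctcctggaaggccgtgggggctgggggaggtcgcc
Prim1: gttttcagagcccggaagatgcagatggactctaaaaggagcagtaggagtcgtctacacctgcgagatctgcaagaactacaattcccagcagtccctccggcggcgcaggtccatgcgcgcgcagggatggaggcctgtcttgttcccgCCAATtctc
Orc6: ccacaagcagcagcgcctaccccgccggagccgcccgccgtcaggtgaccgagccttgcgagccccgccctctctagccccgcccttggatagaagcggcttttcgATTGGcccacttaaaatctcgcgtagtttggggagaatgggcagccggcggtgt
Mcm5: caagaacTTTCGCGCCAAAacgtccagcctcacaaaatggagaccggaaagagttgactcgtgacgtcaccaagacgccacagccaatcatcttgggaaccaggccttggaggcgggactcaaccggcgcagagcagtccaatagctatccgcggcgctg
Mcm6: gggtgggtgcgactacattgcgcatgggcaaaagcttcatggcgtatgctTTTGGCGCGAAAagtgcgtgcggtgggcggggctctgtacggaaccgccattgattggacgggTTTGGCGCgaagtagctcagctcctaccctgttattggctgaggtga

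After 18 h without GDNF and GFRalpha1, 6 of the 46 genes fell and 1 rose. Those that fell were Rrm2, Pcna, Cdc6, Orc6, Slbp and Prim1, which serve nucleotide supply, the polymerase clamp, origin licensing, histone mRNA and priming. The gene that rose was Chaf1b, a subunit of the chromatin assembly factor CAF-1. The other 39 were not called. In all genes tested, 3.83% were called lower and 4.21% higher, against 13.0% and 2.17% of the members. In bulk RNA, fewer cells in S phase and less of a transcript per cell cannot be told apart.

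Most members lay on the lower side without reaching a call. The limma difference was negative in 36 of 46, with a median of -0.23, while it was negative in 42.8% of all genes, whose median was 0.06. The arrays of both groups did not overlap in 17 members, of which 16 were lower and 1 was higher (34.8% and 2.17%). Over all genes these shares were 10.7% lower and 16.1% higher. An unadjusted p under 0.05 was reached by 17 members, or 37.0%, against 23.8% of all genes. The heat map of every member on every array shows lower values in most roles. Of the 10 members on the higher side, Chaf1b was the only one called and the only one whose arrays did not overlap with the maintained arrays.

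**Figure D1:**
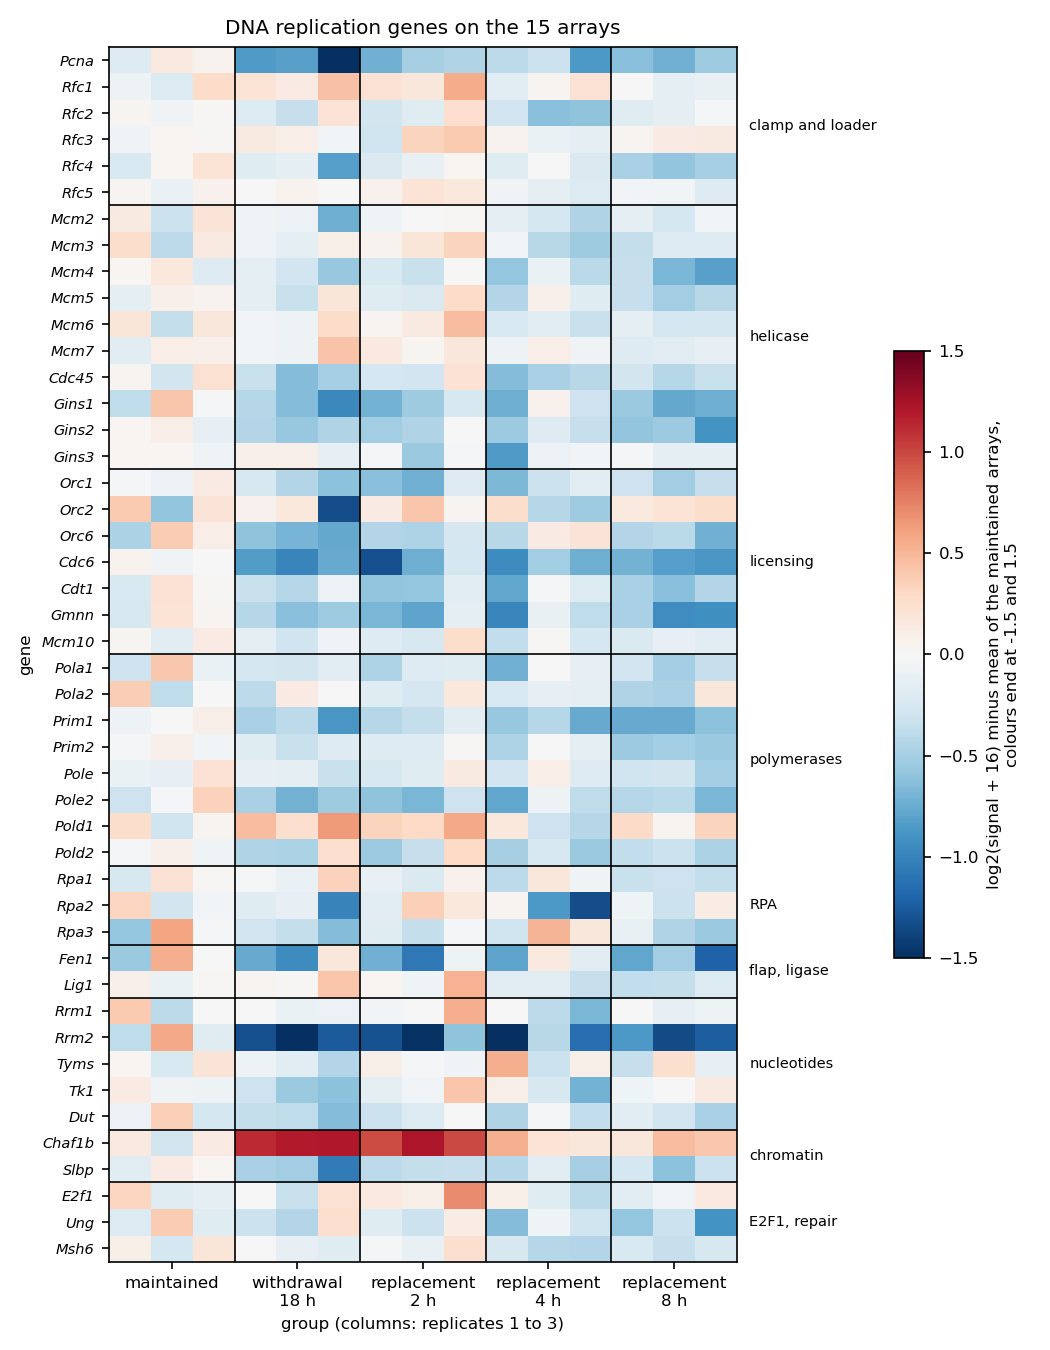
Heat map of the 46 genes (rows, grouped by role) on the 15 arrays (columns, replicates 1 to 3 in each group). Colour is log2(signal + 16) minus the mean of the 3 maintained arrays, with colours ending at -1.5 and 1.5; Rrm2, Pcna and Cdc6 are blue on the withdrawal arrays and Chaf1b is red there and at 2 h.

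The origin licensing genes were all on the lower side: 7 of 7 were negative, with a median of -0.43, and 2 fell. Cdc6, the ATPase that loads the helicase at origins, gave signals of 310, 288 and 298 in the maintained arrays and 159, 142 and 170 after withdrawal. At 2 h it gave 110, 173 and 246, at 4 h 148, 202 and 173, and at 8 h 176, 162 and 155. Every array outside the maintained group was below every maintained array. It fell 1.82-fold on withdrawal (log2 difference -0.86, SE 0.20, adjusted p = 0.0134).

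Orc6, a subunit of the origin recognition complex, gave 575, 1061 and 864 in maintained cultures and 526, 492 and 470 after withdrawal. Its signals were 591, 580 and 676 at 2 h, 604, 879 and 926 at 4 h, and 590, 606 and 485 at 8 h. The withdrawal arrays were the lowest of their comparison, although maintained replicate 1 came close to them. Orc6 fell 1.61-fold (log2 difference -0.69, SE 0.19, adjusted p = 0.0364), a call that ended without any single array of either group except maintained replicate 1 (adjusted p from 0.0577 to 0.167).

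Orc1, the ATPase subunit of the same complex, gave 432, 412 and 478 against 370, 320 and 282, groups that did not overlap, with a difference of -0.43 that was not called (adjusted p = 0.113). Geminin (Gmnn), which blocks Cdt1 after origins have fired, was likewise lower on all 3 withdrawal arrays, with a difference of -0.53 (adjusted p = 0.135). Cdt1, Orc2 and Mcm10 had differences of -0.28, -0.37 and -0.16 with overlapping arrays.

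Among the 10 helicase genes, 7 were negative and none was called, at a median of -0.20; 3 reached an unadjusted p under 0.05. These 3 were subunits added to the ring. Gins1 gave 401, 708 and 517 in maintained cultures and 388, 330 and 263 after withdrawal, a difference of -0.68 (adjusted p = 0.0615). Cdc45 gave 548, 439 and 630 against 420, 333 and 372, a difference of -0.50 (adjusted p = 0.0646). Gins2 gave 264, 278 and 235 against 187, 169 and 185, a difference of -0.48 (adjusted p = 0.0699).

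In each of Gins1, Cdc45 and Gins2 the 3 withdrawal arrays lay below the 3 maintained arrays. Gins3, another GINS gene, differed by 0.01 with overlapping arrays (limma adjusted p = 0.984), and its second probe set by 0.16. Genes of the ring itself had differences of both signs. Differences were -0.30 for Mcm2, -0.04 for Mcm3, -0.33 for Mcm4, -0.10 for Mcm5, 0.06 for Mcm6 and 0.10 for Mcm7, and all 6 had overlapping arrays. The 95% interval for Mcm7 ran from -0.22 to 0.42 and that for Mcm2 from -0.67 to 0.07. A second Mcm4 probe set, less bright on the log2 scale, was called lower (difference -0.74, adjusted p = 0.0202 over all probe sets).

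Pcna, the sliding clamp, stood at 5692, 7206 and 6765 in maintained cultures and at 3605, 3714 and 1969 after withdrawal. Its later signals were 3961, 4609 and 4763 at 2 h, 4962, 5200 and 3585 at 4 h, and 4233, 3953 and 4496 at 8 h. All 12 arrays of the other groups were below the lowest maintained array. Pcna fell 2.18-fold on withdrawal (log2 difference -1.13, SE 0.21, adjusted p = 0.00337).

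None of the 5 genes of the clamp loader RFC was called. Rfc4 gave 690, 827 and 934 against 712, 739 and 452, a difference of -0.38 (adjusted p = 0.172) in which withdrawal replicate 3 was the lowest array. The 95% interval of Rfc4 ran from -0.73 to -0.03. Rfc1, the large subunit, gave 629, 575 and 809 against 767, 727 and 905, a difference of 0.26 (adjusted p = 0.33). Rfc2, Rfc3 and Rfc5 lay at -0.11, 0.06 and 0.01, and the arrays of all 5 loader genes overlapped in the chosen probe sets. A second Rfc3 probe set of similar brightness lay at -0.46 (limma adjusted p = 0.223 over all probe sets), and a second Rfc4 probe set at -0.08.

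Prim1, the catalytic subunit of primase, was the polymerase gene that fell. Its signals were 848, 887 and 950 in maintained cultures, 634, 678 and 482 after withdrawal, 662, 697 and 791 at 2 h, 600, 659 and 523 at 4 h, and 524, 524 and 576 at 8 h. No array outside the maintained group reached the lowest maintained signal. Prim1 fell 1.5-fold on withdrawal (log2 difference -0.58, SE 0.14, adjusted p = 0.0164). A second Prim1 probe set differed by -0.41 and was not called (adjusted p = 0.255 over all probe sets).

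Pole2, the accessory subunit of polymerase epsilon, gave 311, 384 and 499 against 276, 234 and 266, a difference of -0.57 (adjusted p = 0.069) between groups that did not overlap. Pold1, the catalytic subunit of polymerase delta, was on the other side, with 1135, 764 and 968 against 1312, 1128 and 1475, a difference of 0.45 (adjusted p = 0.12) with 1 maintained array inside the withdrawal range. The remaining polymerase genes, Pola1, Pola2, Prim2, Pole and Pold2, differed by -0.23 to -0.09. In this role 7 of the 8 genes were negative, and Prim2 and Pole, like Prim1 and Pole2, had no overlap between the groups.

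Rrm2, the small subunit of ribonucleotide reductase whose level is known to follow S phase, gave 1594, 3098 and 1834 in maintained cultures and 827, 640 and 865 after withdrawal. Its signals were 832, 738 and 1371 at 2 h, 643, 1557 and 939 at 4 h, and 1145, 815 and 879 at 8 h. The maintained arrays were the 3 highest of all 15. Rrm2 fell 2.67-fold (log2 difference -1.42, SE 0.29, adjusted p = 0.0071), the largest fall among the members, and its other probe sets fell by 1.39 and 1.35 on the log2 scale.

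The large subunit of the same enzyme, Rrm1, differed by -0.06 with overlapping arrays. Thymidine kinase (Tk1) gave 690, 608 and 600 against 507, 426 and 407, a difference of -0.49 (adjusted p = 0.106). The dUTPase gene Dut gave 1130, 1549 and 997 against 933, 924 and 760, a difference of -0.46 (adjusted p = 0.0986). Neither Tk1 nor Dut had overlapping arrays, and all 5 nucleotide genes, Tyms included, were negative, with a median of -0.46. Tyms was dim, with a mean signal of 49.8, and its other probe sets lay under the filter.

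The chromatin genes parted. Chaf1b gave 284, 208 and 280 in maintained cultures and 573, 602 and 609 after withdrawal. It then gave 516, 610 and 522 at 2 h, 376, 296 and 288 at 4 h, and 290, 357 and 342 at 8 h. The 6 arrays of withdrawal and 2 h were above the 9 others. Chaf1b rose 2.25-fold on withdrawal (log2 difference 1.17, SE 0.15, adjusted p = 0.000164) and so had the smallest p of all members. Only 1 of its probe sets passed the filter.

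Slbp, which binds the stem-loop of histone mRNAs, gave 2962, 3600 and 3366 in maintained cultures and 2350, 2296 and 1585 after withdrawal. Its signals were 2512, 2565 and 2587 at 2 h, 2444, 2938 and 2340 at 4 h, and 2748, 2145 and 2644 at 8 h. The maintained arrays were again the 3 highest of 15, and Slbp fell 1.61-fold (log2 difference -0.69, SE 0.16, adjusted p = 0.0145). A dim second probe set of Slbp, with a mean signal of 74.6, differed by -0.01.

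No gene was called by limma in the remaining roles, and 0 of their 8 genes reached an unadjusted p under 0.05. Of the single-strand binding protein RPA, Rpa1 gave 3230, 4435 and 3853 against 3738, 3552 and 4825, a difference of 0.07. Rpa2 gave 1588, 1046 and 1233 against 1120, 1163 and 627, and Rpa3 gave 656, 1505 and 982 against 807, 772 and 627. Their differences were -0.44 and -0.43, and the arrays of all 3 RPA genes overlapped.

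Fen1, the flap endonuclease that trims Okazaki fragments, gave 1146, 2481 and 1692 against 998, 868 and 1904, and its difference of -0.51 had an SE of 0.33. A second Fen1 probe set, with a difference of -0.49, was called lower (adjusted p = 0.0498 over all probe sets). DNA ligase 1 (Lig1) gave 1279, 1138 and 1234 against 1246, 1226 and 1621, a difference of 0.15. E2f1 itself, a transcription factor of the G1/S transition, gave 611, 428 and 441 against 483, 383 and 573, a difference of -0.04. Of Fen1, Lig1 and E2f1, Lig1 alone had a positive difference in the chosen probe set. Ung, the uracil glycosylase gene, gave 1086, 1643 and 1106 against 1002, 918 and 1494, a difference of -0.17. Msh6, of mismatch repair, gave 1627, 1275 and 1740 against 1532, 1403 and 1354, a difference of -0.10. All 5 had overlapping arrays in the chosen probe set.

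**Figure D2:**
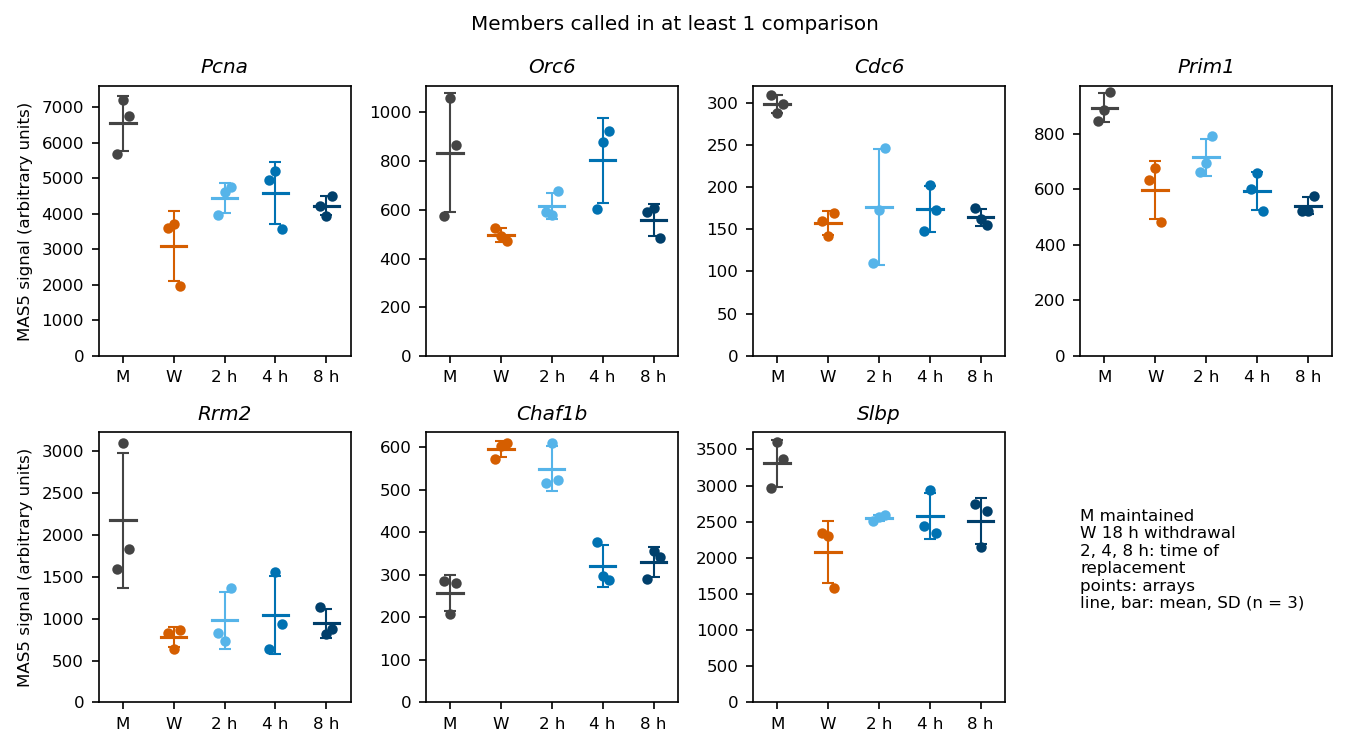
MAS5 signal (arbitrary units, axes from 0) on each array for the 7 genes called in at least 1 comparison; points are arrays, lines and bars the mean and SD of 3. The maintained arrays of Pcna, Cdc6, Prim1, Rrm2 and Slbp lie above those of every other group, and Chaf1b is high at withdrawal and 2 h only.

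The plot of signal by array for the called genes shows the withdrawal group in 1 view, and withdrawal replicate 3 is the lowest withdrawal array for Pcna, Prim1, Slbp and Orc6. This is the array with the high 3′ to 5′ ratios. Without it, Cdc6, Pcna, Rrm2 and Slbp still fell and Chaf1b still rose, 39 of 46 members were negative and the median was -0.23. Prim1 then had an adjusted p of 0.0545 and Orc6 one of 0.0883. Without maintained replicate 3, Cdc6, Pcna and Rrm2 were the only members lower, and Chaf1b was higher.

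Restoring both factors for 2 h changed no member by limma at the adjusted threshold. An unadjusted p under 0.05 was reached by 3 of the 46 (6.52%), against 8.06% of all genes. Of all genes, 0% were called lower and 0.115% higher. The difference from withdrawal was positive in 36 of 46 members, with a median of 0.12 against -0.04 for all genes. Groups of arrays did not overlap in 8 members, all higher (17.4%), against 5.59% of all genes higher and 9% lower.

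The 8 were Pcna, Rfc5, Cdc45, Orc6, Tyms (dim, with a mean signal of 49.8), Tk1, Dut and Slbp. Pcna differed by 0.57 (adjusted p = 0.499), Tk1 by 0.57 (adjusted p = 0.431) and Cdc45 by 0.39 (adjusted p = 0.567). In the chosen probe sets the 6 genes that had fallen were all on the positive side, between 0.09 for Cdc6 and 0.57 for Pcna. The other Rrm2 probe sets lay at 0.70 and 0.64, and the second ones of Prim1 and Slbp at -0.09 and -0.12. The 2 h value rested largely on 1 array. The median member stood at 0.32 on 2 h replicate 3 (log2, relative to each gene's mean over 15 arrays) and at -0.01 and 0.00 on the other 2 h arrays. That array also had the lowest summed fibroblast signal of all 15, 6368. In the comparison of 2 h with withdrawal, all 16 fibroblast markers tested were negative, at a median of -0.34, with none called. Of 8 Sertoli cell markers tested, 7 were negative there. The part of these levels in the result was not tested. Without 2 h replicate 3, 22 of 46 members were negative and the median was 0.03.

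At 4 h against withdrawal, Chaf1b fell 1.83-fold (log2 difference -0.87, SE 0.15, adjusted p = 0.00618), and it was the only member called by limma. Of all genes, 0.91% were called lower and 1.74% higher. An unadjusted p under 0.05 was reached by 7 members (15.2%), against 19.6% of all genes. The nearest to a call were Pold1 at -0.65 (adjusted p = 0.055), Orc6 at 0.66 (adjusted p = 0.0767) and Pcna at 0.60 (adjusted p = 0.128). Members were split, with 26 negative and 20 positive and a median of -0.04, which became 0.05 when arrays were shifted to 1 median. Arrays did not overlap in 6 members on the lower side (13.0%) and 1 on the higher side (2.17%), against 12.6% and 8.76% of all genes.

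At 8 h against withdrawal, Chaf1b was again the only member called, 1.77-fold lower (log2 difference -0.83, SE 0.15, adjusted p = 0.00685). Called lower were 1.09% of all genes and called higher 1.3%. In the chosen probe sets the 6 fallen genes differed from withdrawal by -0.13 for Prim1 to 0.50 for Pcna, and none of the 6 was called. The other Rrm2 probe sets differed by 0.84 and 0.60, the second of Prim1 by -0.75 and the dim second of Slbp by 0.07. None of these was called either. Tk1 stood at 602, 630 and 693, above all withdrawal arrays, with a difference of 0.51 (adjusted p = 0.161). Lig1 stood at 937, 945 and 1054, below all withdrawal arrays, with a difference of -0.46 (adjusted p = 0.133). In all, 29 of 46 members were negative, with a median of -0.12 against 0.01 for all genes. Arrays did not overlap in 13 members on the lower side (28.3%) and in 2, Pcna and Tk1, on the higher side (4.35%), against 11.1% and 10.4% of all genes. An unadjusted p under 0.05 was reached by 7 members (15.2%), and by 15.3% of all genes. Among 34 genes of mitosis, 24 were negative (70.6%), at a median of -0.14, and arrays did not overlap in 10, all lower (29.4%).

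Compared with maintained cultures, the 8 h group lay lower in most replication genes, with 1 of 46 called. This comparison and that of withdrawal use the same 3 maintained arrays, so they are given side by side. Prim1 fell 1.63-fold (log2 difference -0.71, SE 0.14, adjusted p = 0.0282) and was the only member called. With limma adjustment over all probe sets, its second probe set was called lower (difference -1.16, adjusted p = 0.0253). The chosen probe set was not called under that adjustment (adjusted p = 0.0551). Called lower were 0.206% of all genes and called higher 0.275%. An unadjusted p under 0.05 was reached by 21 members (45.7%), against 17% of all genes.

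The difference was negative in 41 of 46 members (89.1%), at a median of -0.34, against 41.4% of all genes, at a median of 0.06. Arrays did not overlap in 21 members on the lower side (45.7%) and in 2, Rfc3 and Chaf1b, on the higher side (4.35%). Over all genes these shares were 10.8% and 15.8%. In the chosen probe sets the 6 genes that fell on withdrawal lay between -1.14 for Rrm2 (adjusted p = 0.0806) and -0.40 for Slbp (adjusted p = 0.224). Among them, Pcna lay at -0.63 (adjusted p = 0.158) and Cdc6 at -0.80 (adjusted p = 0.0709). The other Rrm2 probe sets lay at -0.56 and -0.75, and the dim second one of Slbp at 0.06.

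Other genes near a call at 8 h were Gins2 at -0.68 (adjusted p = 0.0604), Prim2 at -0.54 (adjusted p = 0.0613), Gmnn at -0.78 and Mcm4 at -0.61 (both with adjusted p = 0.0895). In the chosen probe sets all 6 ring genes were negative here, from -0.61 for Mcm4 to -0.15 for Mcm2. Among their other tested probe sets, those positive were of Mcm5 (0.12) and Mcm7 (0.23 and 0.28). The rest were negative, with Mcm2 at -0.72. Tk1 lay at 0.02 and Chaf1b at 0.35 (adjusted p = 0.243). The count of 1 rose to 20 lower members with array weights and to 6 when only the compared groups were fitted. Lower calls over all 13083 genes rose likewise, from 27 to 565 with array weights and to 94 with only the compared groups. The member count was 0 without any single array of either group except maintained replicate 1.

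**Figure D3:**
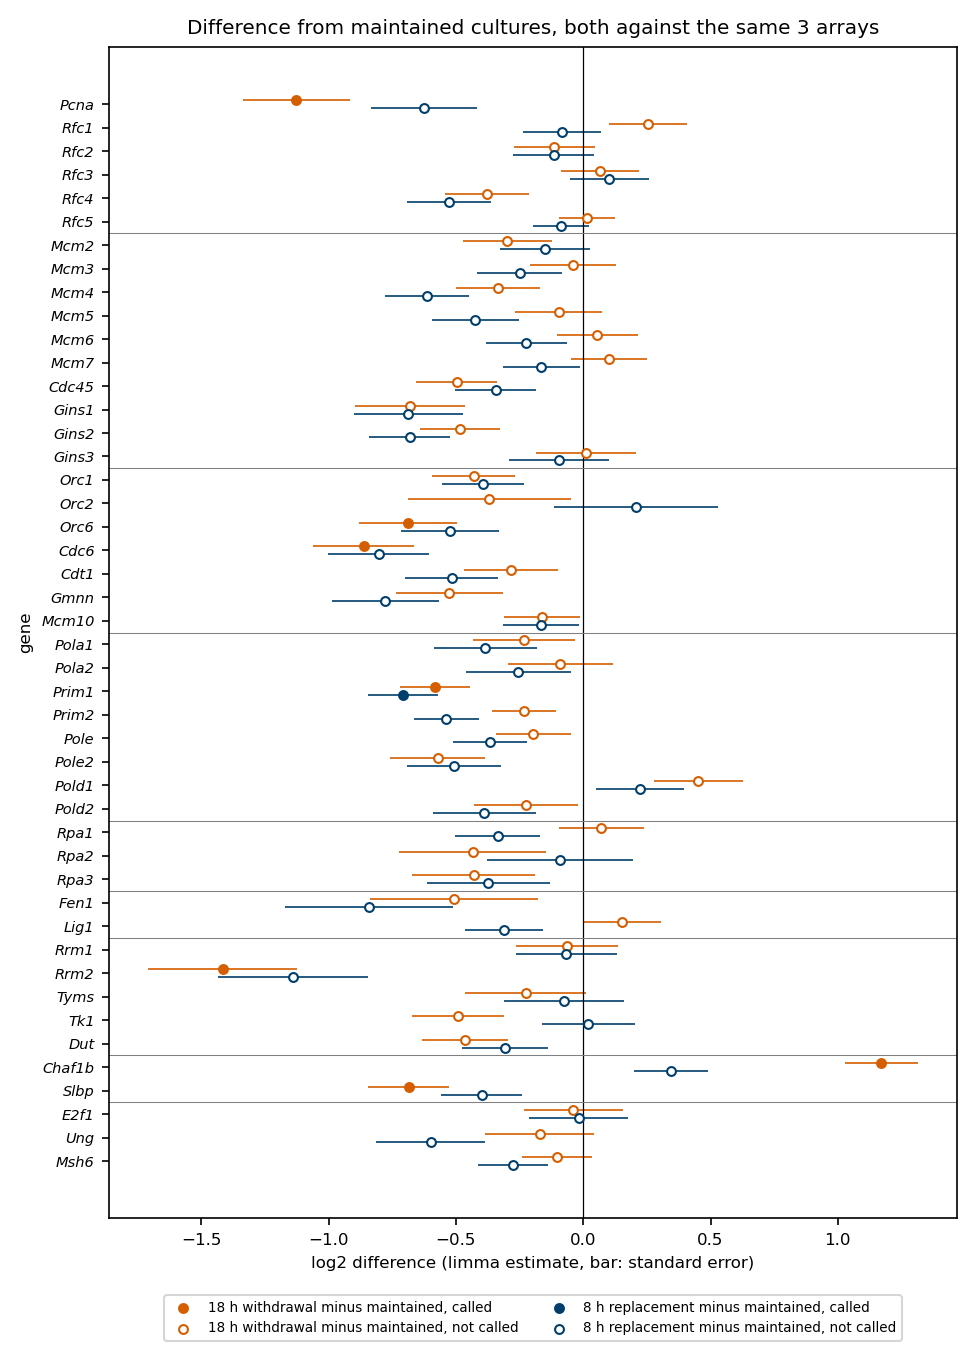
Log2 difference from maintained cultures (limma estimate with its standard error) for the 46 genes, after 18 h of withdrawal (orange) and after 8 h of replacement (blue), both against the same 3 arrays. Filled points passed the adjusted threshold; 36 orange and 41 blue points lie below 0, and Chaf1b is the filled orange point above it.

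Markers of fibroblasts also had higher signal at 8 h. All 16 fibroblast markers tested were positive at 8 h against maintained cultures, with a median of 0.68 and 1 called higher. All 16 were likewise positive at 4 h and at 8 h against withdrawal, with 5 called in each. Summed Sertoli cell markers were 771 to 894 at 8 h and 558 to 660 in maintained cultures. Summed Leydig cell markers were 272 to 402 at 8 h and 131 to 252 in maintained cultures. The 2 Leydig markers tested were positive in that comparison, and Cyp11a1 was called higher (log2 difference 1.41, limma adjusted p = 0.0342). Cyp11a1 was also called higher at 8 h against withdrawal (1.30) and against 2 h (1.29). Of 4 blood and endothelial markers tested at 8 h against maintained cultures, 2 were negative, at a median of 0.02. Summed germ cell markers were 13622 to 15025 at 8 h and 13999 to 15739 in maintained cultures. More cells of another type and a higher level of these genes in the germ cells cannot be told apart here, and the part of these levels in the members' differences was not tested.

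Within the replacement course, 8 h was set against 2 h. Chaf1b fell 1.64-fold (log2 difference -0.71, SE 0.15, adjusted p = 0.0169), and no other member was called by limma. Called lower were 0.375% of all genes and called higher 1.48%. Members were negative in 42 of 46 (91.3%), at a median of -0.20, against 44.9% of all genes, at a median of 0.03. The replication genes were not alone in this. Among 34 genes of mitosis, 31 were negative (91.2%), at a median of -0.17. All 8 germ cell markers tested were negative as well, at a median of -0.18. Arrays did not overlap in 17 members, all lower (37.0%), and in 12 mitosis genes, all lower (35.3%), against 10.9% of all genes lower and 14.7% higher. An unadjusted p under 0.05 was reached by 14 members (30.4%), against 14.5% of all genes.

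The largest of the uncalled differences were those of Lig1 at -0.47 (adjusted p = 0.143) and Ung at -0.47 (adjusted p = 0.328). Primase lay lower as well, with Prim2 at -0.42 and Prim1 at -0.39. This comparison too leaned on 2 h replicate 3. Without that array the median was -0.08 and 34 of 46 were negative, and the call of Chaf1b ended, as it did without 2 h replicate 2 or any single 8 h array. All 16 fibroblast markers were higher at 8 h than at 2 h in the estimate, at a median of 1.04, and 9 of them were called.

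**Figure D4:**
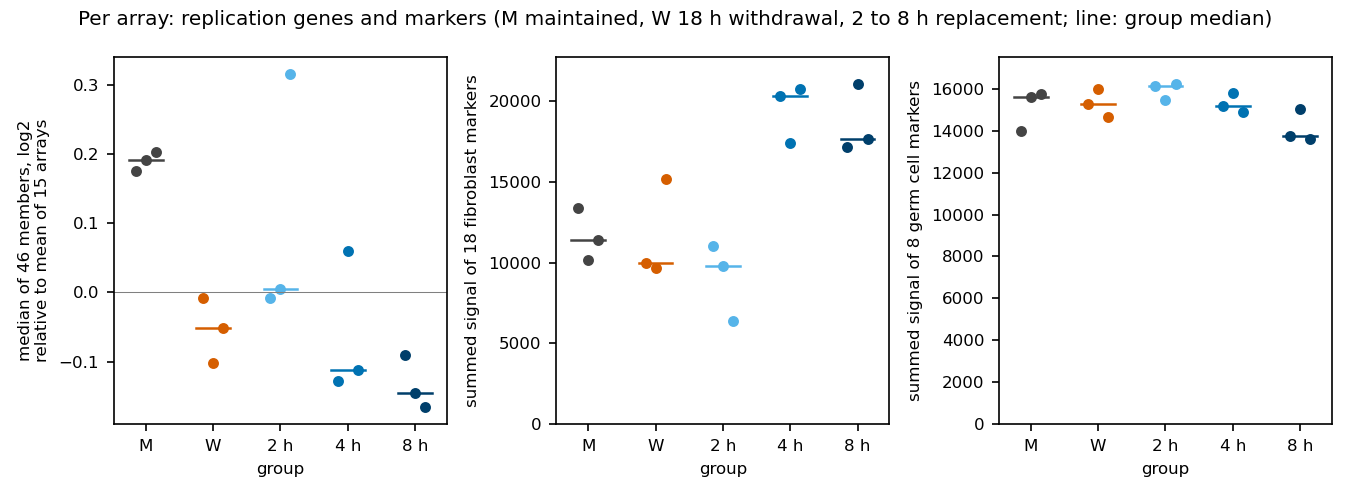
Per array, the median of the 46 genes (log2 relative to each gene's mean over 15 arrays), the summed signal of 18 fibroblast markers and that of 8 germ cell markers; lines are group medians. The maintained arrays lie at 0.18 to 0.20 in the first panel, the 8 h arrays at -0.17 to -0.09, and 2 h replicate 3 at 0.32.

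Array by array, the median member was 0.18 to 0.20 in maintained cultures, -0.10 to -0.01 after withdrawal, -0.01 to 0.32 at 2 h, -0.13 to 0.06 at 4 h and -0.17 to -0.09 at 8 h, as the plot of medians and marker sums shows. The maintained arrays did not overlap with those of withdrawal, 4 h or 8 h. Within a group, the median SD of a member on the log2 scale was 0.10 at 8 h and 0.19 to 0.24 in the other groups. Over all genes it was also smallest at 8 h, 0.16 against 0.18 to 0.23 in the other groups.

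Of 30 further replication genes tested, 5 fell and 1 rose on withdrawal, at a median of -0.07. This is 20.0% called, against 15.2% of the members and 8.04% of all genes. Orc4, another origin recognition subunit, fell 1.9-fold, from 562 ± 66.0 to 295.4 ± 82.8 (SD, n = 3; limma adjusted p = 0.00276). Dscc1, of an alternative clamp loader, fell 1.63-fold (adjusted p = 0.0147), while Chtf18, of the same loader, rose 1.5-fold (adjusted p = 0.0191). The other 3 that fell did so by less than Orc4. Of 13 further nucleotide genes none was called by limma and 2 had an unadjusted p under 0.05, at a median of -0.12. Of 6 further chromatin and repair genes the histone chaperone gene Asf1b fell (log2 difference -0.44, adjusted p = 0.0371).

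Regulators of the G1/S transition gave 4 that fell (14.3%) and 1 that rose (3.57%) among 28 tested, against 3.83% and 4.21% of all genes. Ccnd2, the gene of cyclin D2, fell 1.86-fold (adjusted p = 0.00656) and Ccne1, of cyclin E1, fell 2-fold (adjusted p = 0.0164). Cdkn1c, of a cyclin-dependent kinase inhibitor, rose 1.62-fold (adjusted p = 0.0142). Among 34 genes of mitosis, Cdk1 alone fell (1.62-fold, adjusted p = 0.0107), which is 2.94% of them. Of the 34, 16 were negative (47.1%, against 42.8% of all genes) and the median was 0.02. At 8 h against maintained cultures, 26 of the 34 mitosis genes were negative (76.5%, against 41.4% of all genes), at a median of -0.15. None was called by limma, with 4 at an unadjusted p under 0.05 (11.8%, against 17% of all genes). There Dna2 was the replication gene beyond the members that was lower (log2 difference -0.85, adjusted p = 0.0487).

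The later comparisons called few of these genes. Pold3, of polymerase delta, fell at 4 h against withdrawal (log2 difference -0.62, adjusted p = 0.0347). Pold4, of the same polymerase, rose at 8 h (0.76, adjusted p = 0.0118), and so did Ccnd2 (0.78, adjusted p = 0.0323), with signals of 4302 ± 58.9 at 8 h against 2546 ± 601 after withdrawal. At 8 h against 2 h, the kinase inhibitor gene Cdkn1a was higher (0.99, adjusted p = 0.0102) and the mitotic kinase gene Nek2 lower (-0.58, adjusted p = 0.0387).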

How the data were processed

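Total RNA of 15 samples was hybridised to single-colour Affymetrix arrays, 1 per sample. Per the labels, the authors computed the values with MAS5; for the version, the chip and the genome build, nothing is given in the sources used here. The deposited values are MAS5 intensity, linear and not log-transformed, for 45101 probe sets. Trimming 2% at each end left a mean of 150.0 on each array, which shows the scaling by the authors. The number of arrays limits precision: the median SE of a log2 difference was 0.19 over all genes and 0.17 over the members.

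Probe sets were named from the platform annotation: 34945 carried 1 gene symbol, 932 several and 9160 none, and 64 controls were left out. Signals were transformed as log2(signal + 16), and 26 values were exactly 0. The dimmest 40% of probe sets (mean signal under about 30.5) were dropped, and each gene was read from its probe set with the highest mean. With 34 of the members on several probe sets (100 member probe sets in all), the text says where another gave another call for a named gene. One limma model (version 3.58.1, R 4.3.3) held all 5 groups (lmFit, eBayes with a variance trend, 10 residual degrees of freedom), two-sided, with Benjamini-Hochberg adjustment over 13083 genes in each of 6 comparisons. The script was tested on simulated data.

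The members, the other gene lists and the comparisons were chosen with earlier results of these data known. Every called member is named. Arrays are given one by one for the 3 members of each role with the smallest p on withdrawal, and for members called at 8 h. Of each other list, cell type markers aside, up to 3 called genes are named. The rule for printing promoters, called members with an E2F motif, found none, and the printed set was chosen afterwards. No correction for batch was possible, as the labels give none.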

Additional observations from a re-analysis of the deposited data

Results flagged for a closer look

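The change of Chaf1b from withdrawal differed between replacement times: it was -0.12 at 2 h and -0.83 at 8 h on the log2 scale, and the test of the difference itself gave -0.71 (limma adjusted p = 0.0169), with all 3 arrays at 8 h below all 3 at 2 h. The call ended when replicate 2 or 3 of the 2 h group, or any single 8 h array, was left out, with adjusted p-values up to 0.0924 over all alternatives. Its cause was not tested.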

How the results depend on the processing

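The 6 counts of lower and 6 of higher members were recomputed under each alternative. Of these, 175 counts kept within 1.5 times, 15 became larger and 14 smaller. The 175 include counts that were 0 in the main fit and stayed 0. With array weights the lower members were 12 on withdrawal, 3 at 4 h and 2 at 8 h against withdrawal, 20 at 8 h against maintained and 5 at 8 h against 2 h, and 1 was higher at 4 h (Orc6). With only the groups compared in the fit they were 2 on withdrawal (Cdc6 and Rrm2), 0 at 4 h, 6 at 8 h against maintained and 4 at 8 h against 2 h. Calls over all genes moved as well under these settings. On withdrawal, lower calls over all genes went from 501 to 1026 with array weights and to 167 with only the groups compared. At 4 h they went from 119 to 744 and 2, at 8 h against maintained from 27 to 565 and 94, and at 8 h against 2 h from 49 to 319 and 157. At 4 h, 2 members were lower with the dimmest 60% left out and with quantile normalization (Chaf1b and Pold1). At 8 h against 2 h, 2 were lower with the mean of all probe sets, and at 8 h against maintained 0 without the variance trend. Leaving out each array in turn gave 3 to 8 lower on withdrawal, 1 to 2 at 4 h with 0 to 1 higher, 0 to 2 at 8 h against maintained and 0 to 1 at 8 h against 2 h. The 3 came without maintained replicate 3, and the larger counts at 4 h came without 4 h replicate 1. The cause of these changes was not tested. With 2 arrays left in a group, its spread is taken from all groups.

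Calls of Cdc6 and Rrm2 on withdrawal, and of Chaf1b on withdrawal and at 8 h against withdrawal, held in 17 of 17 alternatives. Pcna held in 16, Prim1 in 14, Slbp in 12 and Orc6 in 9 of them on withdrawal. Shifting arrays to 1 median moved the median of all genes by over 0.1 in some comparisons: at 8 h against maintained from 0.06 to -0.08, with members at -0.49, and at 8 h against 2 h from 0.03 to -0.09, with members at -0.33. It also moved the calls over all genes on withdrawal from 501 lower and 551 higher to 646 and 265, while the members' calls stayed 6 and 1.

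Same-numbered samples showed no clear pairing: deviations from group means correlated between -0.15 and 0.25, and in no comparison were all above 0.1. At 2 h against withdrawal all 3 were positive (0.05, 0.19 and 0.25). With 3 arrays a group this check cannot exclude pairing. With the replicate number as a block, 7 members were lower on withdrawal, with Cdc45 added, and 2 at 4 h, with Pold1 added; the counts of the other comparisons stayed as they were.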
